A study of Mus musculus with 12 samples.

Results

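Capn8, Zfand4, E030018B13Rik, Moxd1, Scara5 and Ces4a are 6 genes whose liver expression was higher in Lats2-CKO mice on normal diet than in every other group of the experiment. They were picked because all 3 Lats2-CKO normal-diet arrays read above the other 9 arrays, so their height in that group was the reason for choosing them and is described here without a test. Each was read by a single probe set annotated to 1 gene, and the 6 were taken from 22180 measured genes, of which 380 (1.71%) met the same condition. Expression was measured on 12 single-colour arrays of male mouse livers, with 3 arrays, labelled as biological replicates, in each of 4 groups. The groups were Lats2-CKO mice fed a Paigen diet (1.25% cholesterol, here the high-cholesterol diet), Lats2-CKO mice fed normal chow (0% cholesterol), wild-type mice fed the first diet and wild-type mice fed chow. By the labels, the mice were 8 weeks old at the start and ate these diets for 9 weeks. The labels use Lats2-KO beside Lats2-CKO for the mutant line, without naming the deleted part of the gene, the Cre driver or the cells concerned.

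LATS2, the kinase targeted in the mutant line, acts in the Hippo pathway: it phosphorylates the co-activators YAP and TAZ and so keeps them out of the nucleus. The kinase has also been linked to SREBP, the transcription factor that turns on cholesterol synthesis genes when cells are short of sterol. A diet rich in cholesterol lowers SREBP activity in the liver. The 6 genes are not known as members of a single pathway. Capn8 is a calcium-dependent protease of the calpain family, best known from the mucous cells of the stomach. Ces4a belongs to the carboxylesterases, enzymes that cut ester bonds in lipids and drugs, and Moxd1 is a relative of the copper enzyme dopamine beta-hydroxylase that resides in the endoplasmic reticulum. Scara5 is a class A scavenger receptor that binds ferritin and brings its iron into cells. Zfand4 has an AN1-type zinc finger and a ubiquitin-like domain, and E030018B13Rik is a protein-coding gene known by its clone name.

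A pair of normal-diet arrays stood apart in the gene sets named here, and other arrays differed in the counts given under the other observations. Lats2-CKO normal-diet array 3 read adrenal gland genes that the other 11 arrays did not show, a set of 9 chosen after the values were seen. Cyp11b1, the last enzyme of corticosterone synthesis, was 10.25 on this array and 2.60 to 3.03 on the others, all on the log2 scale. Star, which carries cholesterol into adrenal mitochondria, was 10.08, against 3.19 to 3.71, and Th, the first enzyme of catecholamine synthesis, was 7.40, against 2.47 to 2.76. The brown fat gene Ucp1 was 5.92 there and 2.67 to 3.04 elsewhere. The mean of the 9 adrenal genes was 7.90 on array 3 and 2.97 and 3.04 on Lats2-CKO normal-diet arrays 1 and 2. Wild-type normal-diet array 3 was the other. Its 16 cholesterol synthesis genes averaged 5.97, just above the 5.75 to 5.95 of the 6 high-cholesterol arrays, while arrays 1 and 2 of the same group averaged 7.64 and 6.84. Albumin ran from 13.15 to 13.37 on the 12 arrays. Lats2 averaged 4.64 ± 0.23 in Lats2-CKO and 5.33 ± 0.31 in wild-type livers on normal diet (SD, n = 3 each), a difference of -0.68 ± 0.23 (limma adjusted p = 0.35). On the high-cholesterol diet it averaged 4.83 ± 0.19 in Lats2-CKO and 5.60 ± 0.43 in wild-type livers (limma adjusted p = 1), and whether its probe set lies in the deleted part is not known here.

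Promoter sequence was available in RefSeq's GRCm38.p6 annotation for 5 of the 6 genes, all but Scara5. The 250 bases before the start of Capn8 (chr1:182564757-182565006), Ces4a (chr8:105131550-105131799) and Moxd1 (chr10:24223267-24223516), all on the plus strand, are shown because the first 2 share a run of letters and the last had the largest change. Capitals mark ATCACCCCA, the start of the sterol regulatory element of the LDL receptor gene.
Capn8: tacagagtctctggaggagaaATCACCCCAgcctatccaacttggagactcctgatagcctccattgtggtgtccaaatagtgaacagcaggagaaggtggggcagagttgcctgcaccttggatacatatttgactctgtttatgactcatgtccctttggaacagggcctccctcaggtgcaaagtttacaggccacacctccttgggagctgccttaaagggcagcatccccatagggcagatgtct
Ces4a: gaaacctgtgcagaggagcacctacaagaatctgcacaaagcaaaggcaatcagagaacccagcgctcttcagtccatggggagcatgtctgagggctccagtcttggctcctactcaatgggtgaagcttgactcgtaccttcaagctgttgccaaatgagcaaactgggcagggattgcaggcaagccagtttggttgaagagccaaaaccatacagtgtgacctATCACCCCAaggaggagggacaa
Moxd1: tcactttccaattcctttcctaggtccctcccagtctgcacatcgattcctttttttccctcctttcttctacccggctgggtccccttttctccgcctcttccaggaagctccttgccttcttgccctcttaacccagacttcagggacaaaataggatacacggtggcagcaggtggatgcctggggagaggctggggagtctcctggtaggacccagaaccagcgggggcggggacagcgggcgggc
The letters ATCACCCCA were found 229 bases before the start of Capn8 and 23 bases before that of Ces4a, and not in the Moxd1, Zfand4 or E030018B13Rik windows. Searched on both strands, they occurred in 79 of 32851 mouse promoter windows of this length (0.24%). This run was searched after the sequences had been looked at. The 75 genes that hold it included 40 measured genes, with a median change of -0.0047 between Lats2-CKO and wild-type livers on normal diet. Capn8 and Ces4a were the 2 of these 40 with all 3 Lats2-CKO normal-diet arrays above the rest. Both had been chosen for that height, and the run was picked after their sequences were seen. This count was therefore fixed in advance and is not support for a link. None of the 14 cholesterol synthesis genes with a window held these exact letters, so these letters are not a shared feature of that list. GGAATG, the core of the motif bound by the TEAD partners of YAP, was in 0 of the 6 member windows (Zfand4 has 2 start sites) and in 12.6% of all windows. The E-box CACGTG was in 0 of 6 and 6.02%, TATAAA in 1 of 6 (Zfand4) and 12.4%, AGGTCA in 1 of 6 (Ces4a, on the minus strand directly before the capitals and not overlapping them) and 14.0%, and CCAAT in 3 of 6 (both Zfand4 windows and Moxd1) and 33.8%. A match describes letters in a window and does not show a bound site.

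Capn8 had the clearest separation of all 22180 genes. It read 6.40, 6.66 and 6.14 in Lats2-CKO livers on normal diet, against 3.71, 3.58 and 3.23 in wild-type livers on normal diet. On the high-cholesterol diet it read 3.31, 3.08 and 3.37 in Lats2-CKO livers and 2.90, 3.15 and 3.15 in wild-type livers. The lowest Lats2-CKO normal-diet array lay 2.42 above the highest of the other 9, a gap of rank 1. The 9 other arrays spanned 2.90 to 3.71, close to the 30th percentile of all array values (3.05), so the gene was near the bottom of the measurable range outside the 1 group. The fitted difference between Lats2-CKO and wild-type livers on normal diet was 2.89 ± 0.16 (SE), or 7.41-fold. At such dim levels the size of a fold is uncertain.

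Moxd1 differed by the most, and 1 wild-type array lay partway up. It read 10.03, 9.42 and 9.49 in Lats2-CKO livers on normal diet, against 7.12, 3.22 and 2.98 in wild-type livers on normal diet. High-cholesterol livers read 3.27, 3.30 and 5.01 in Lats2-CKO mice and 2.91, 3.12 and 3.39 in wild-type mice. Wild-type normal-diet array 1, at 7.12, lay between the Lats2-CKO normal-diet arrays and all others, and Lats2-CKO high-cholesterol array 3 was the next. The genotype difference on normal diet was 5.21 ± 0.90 and became 6.55 ± 0.45 without wild-type normal-diet array 1. The gap below the Lats2-CKO normal-diet arrays was 2.30 with that array and 4.41 without it.

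E030018B13Rik behaved like Capn8, with more spread in the high group. It read 7.24, 6.53 and 5.999 in Lats2-CKO livers on normal diet, against 3.76, 3.69 and 3.01 in wild-type livers on normal diet. The high-cholesterol arrays read 2.99, 3.26 and 3.26 in Lats2-CKO and 3.39, 3.09 and 2.95 in wild-type mice. All 9 arrays outside the Lats2-CKO normal-diet group were at 3.76 or below. The genotype difference on normal diet was 3.10 ± 0.29, or 8.6-fold, and the gap of 2.24 held rank 3.

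Zfand4 was read well above the dimmest levels in every group. It read 6.56, 6.61 and 6.99 in Lats2-CKO livers on normal diet, against 5.33, 5.09 and 5.05 in wild-type livers on normal diet. High-cholesterol arrays read 4.83, 4.93 and 5.15 in Lats2-CKO and 5.20, 4.90 and 4.97 in wild-type mice. The 9 arrays outside the high group stayed within 4.83 to 5.33 (mean 5.05 ± 0.16, SD, n = 9), so the 3 other groups overlapped. The genotype difference on normal diet was 1.56 ± 0.14, or 2.95-fold, with a gap of 1.23.

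Scara5 and Ces4a were separated by less. Scara5 read 6.54, 5.61 and 6.65 in Lats2-CKO livers on normal diet, against 3.79, 3.80 and 3.55 in wild-type livers on normal diet. On the high-cholesterol diet it read 3.84, 4.59 and 5.16 in Lats2-CKO livers and 3.68, 3.67 and 4.57 in wild-type livers. Its high-cholesterol arrays were scattered, array 3 being the highest in both genotypes, and the gap was 0.45, the smallest of the 6. Without Lats2-CKO normal-diet array 2 it was 1.38, and without Lats2-CKO high-cholesterol array 3 it was 1.02. Ces4a read 4.36, 4.38 and 4.49 in Lats2-CKO livers on normal diet, against 3.75, 3.75 and 3.56 in wild-type livers on normal diet. High-cholesterol arrays read 3.38, 3.35 and 3.35 in Lats2-CKO and 3.13, 3.36 and 3.42 in wild-type mice. Its genotype difference on normal diet was the smallest, 0.72 ± 0.10 or 1.65-fold, and its SD of 0.07 in the Lats2-CKO normal-diet group was the lowest of the 6.

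**Figure D1:**
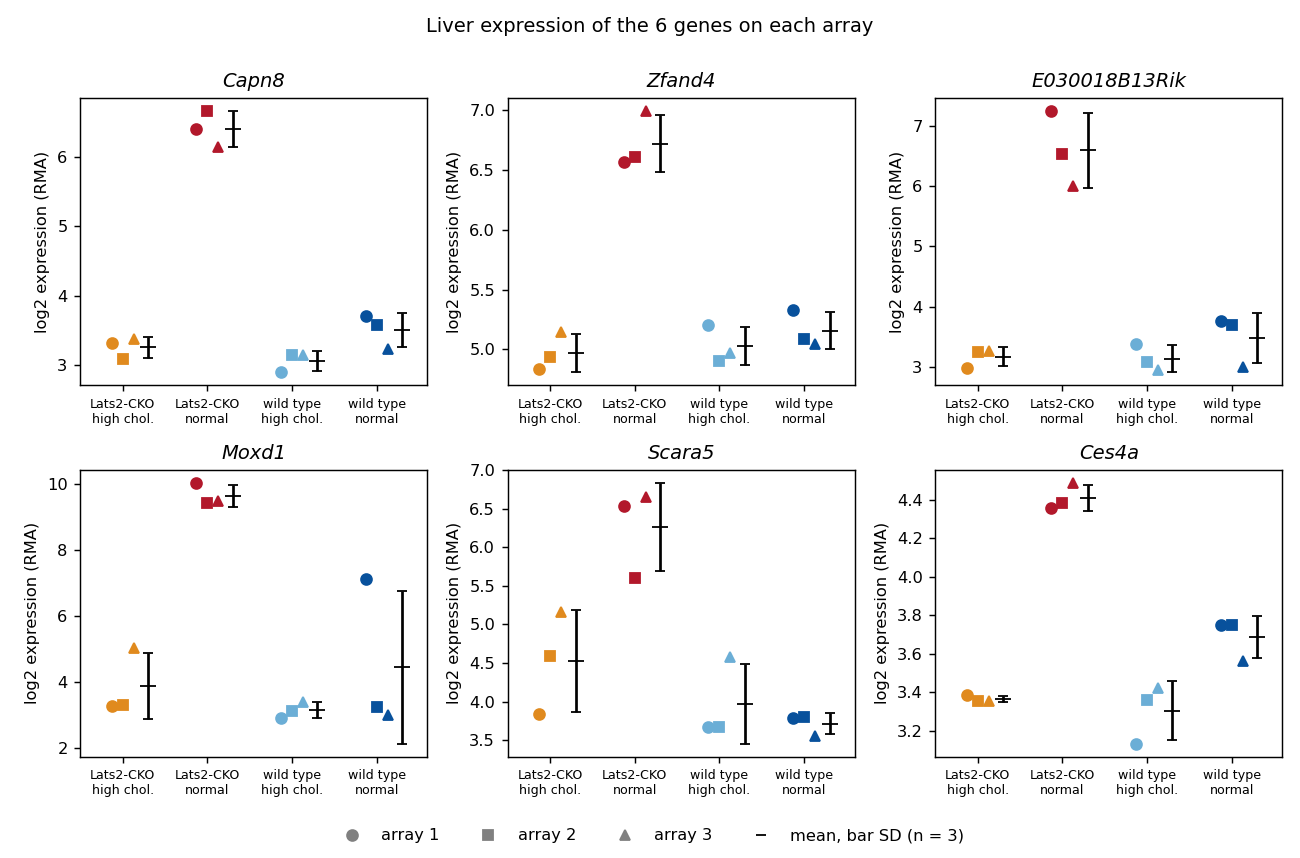
Each panel plots log2 expression of 1 gene on the 12 arrays, with groups on the horizontal axis, 1 symbol per array number, and a black line with a bar for the mean and SD of 3 arrays. The Lats2-CKO normal-diet arrays lie highest in every panel, and the wild-type normal-diet array 1 of Moxd1 stands alone at 7.12.

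The condition that chose these genes was met by 380 genes, but few of them were separated as widely. Capn8, Moxd1, E030018B13Rik and Zfand4 held ranks 1 to 4 by gap, Ces4a rank 9 and Scara5 rank 16. Only 5 of 22180 genes (0.0225%) had a gap of at least 1, the 4 leading genes and Serpina4-ps1, a serpin pseudogene at 1.04. The next 4 outside the 6, leaving out predicted and clone-named genes (which held ranks 10 and 11 at 0.555 and 0.511), were Serpina12, a serpin also known as vaspin (0.65), F11, coagulation factor XI (0.64), Cidec, a lipid droplet protein (0.64), and Larp7, which binds 7SK RNA (0.48). At the edge of the condition, A930019D19Rik and Baz1a were just inside with a gap of 0.0001, and Elmod2 and Gm7762 just outside at -0.0002. The same condition for the other groups was met by 60 genes for Lats2-CKO high-cholesterol arrays (0.271%), 120 for wild-type high-cholesterol arrays (0.541%) and 204 for wild-type normal-diet arrays (0.92%), none of them by 1 or more. Genes with all 3 Lats2-CKO normal-diet arrays below the other 9 numbered 484 (2.18%), none by 1 or more.

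**Figure D2:**
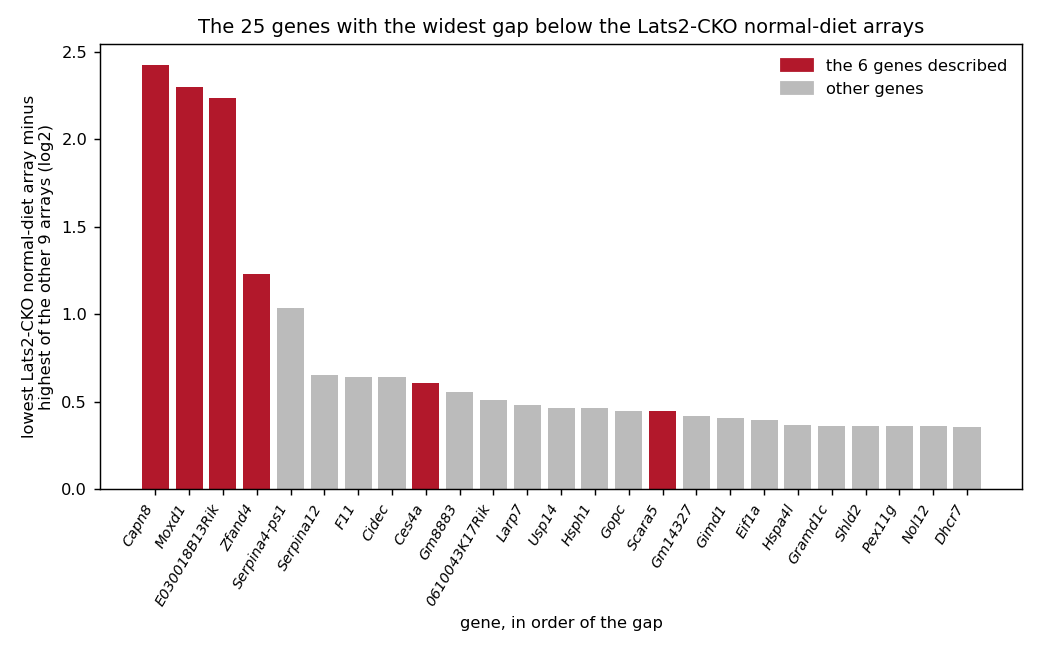
Bars give, for the 25 genes with the widest gap, the lowest Lats2-CKO normal-diet array minus the highest of the other 9 arrays on the log2 scale, with the 6 genes in red and other genes in grey. Capn8, Moxd1 and E030018B13Rik exceed 2, Zfand4 stands at 1.23, and all bars after Serpina4-ps1 (1.04) lie at 0.65 or below.

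All 6 genes were lower in Lats2-CKO livers on the high-cholesterol diet than on normal diet, a contrast that the choice of genes also fixed. The change was -5.78 ± 0.90 for Moxd1, -3.42 ± 0.29 for E030018B13Rik, -3.14 ± 0.16 for Capn8, -1.75 ± 0.14 for Zfand4, -1.73 ± 0.36 for Scara5 and -1.05 ± 0.10 for Ces4a (log2, SE, 3 arrays against 3). Over all genes, limma at an adjusted p of 0.05 called 60 for diet in Lats2-CKO mice (0.271%), 3 for genotype on normal diet (0.0135%) and 1 for the interaction of genotype and diet (0.00451%). With single arrays left out, the counts were 5 to 468 for diet in Lats2-CKO mice, 3 to 17 for genotype on normal diet and 1 to 2 for the interaction. These 3 contrasts were used in choosing the 6 genes, so no call among them is read here. All 3 calls for genotype on normal diet and the 1 for the interaction fell on members of the 6. The rule had picked these genes for their height in the Lats2-CKO normal-diet group, so these calls are not support for them. Without Lats2-CKO normal-diet array 3, the array with adrenal genes, the genotype differences on normal diet were 3.02 for Capn8, 1.43 for Zfand4, 3.40 for E030018B13Rik, 5.29 for Moxd1, 2.36 for Scara5 and 0.68 for Ces4a. The gap was then 2.68 for Capn8 and 2.77 for E030018B13Rik, and that of the other 4 genes was set by arrays 1 and 2.

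The choice did not set the contrasts of diet in wild-type mice and of genotype on the high-cholesterol diet, and in these none of the 6 genes passed. It did hold their arrays below the Lats2-CKO normal-diet arrays, which limited how high they could read. The p-values and shares for these contrasts are therefore not fully free of the choice. On the high-cholesterol diet, Lats2-CKO minus wild type was 0.19 ± 0.16 for Capn8, -0.05 ± 0.14 for Zfand4, 0.03 ± 0.29 for E030018B13Rik, 0.72 ± 0.90 for Moxd1, 0.56 ± 0.36 for Scara5 and 0.06 ± 0.10 for Ces4a, with a limma adjusted p of 1 for each. The 95% intervals ran from -0.16 to 0.54 for Capn8, -0.37 to 0.26 for Zfand4 and -0.16 to 0.27 for Ces4a. For E030018B13Rik the interval was -0.60 to 0.66, for Scara5 -0.25 to 1.36 and for Moxd1 -1.25 to 2.70, the widest of the 6. The genotypes overlapped for all 6 genes on this diet, against 7.44% of all genes that did not overlap. Limma called 0 of 22180 genes in this contrast, and 650 had an unadjusted p below 0.05.

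In wild-type mice, 5 of the 6 genes had a lower mean on the high-cholesterol diet, as did 55.2% of all genes. Ces4a had the smallest p, with a change of -0.38 ± 0.10 (unadjusted p = 0.00239, limma adjusted p = 0.309), and all 3 wild-type high-cholesterol arrays lay below all 3 wild-type normal-diet arrays. Capn8 showed the same order at -0.44 ± 0.16 (unadjusted p = 0.0192, limma adjusted p = 0.384). These 2 of 6 compare with 8.81% of all genes with that order. Moxd1 was at -1.30 ± 0.90, E030018B13Rik at -0.35 ± 0.29, Zfand4 at -0.13 ± 0.14 and Scara5 at 0.26 ± 0.36, with limma adjusted p of 0.649 to 0.855. No gene passed this contrast by limma (0 of 22180, 0%), while 2349 had an unadjusted p below 0.05. Without wild-type normal-diet array 3, Ces4a was at -0.45 (limma adjusted p = 0.0602) and Capn8 at -0.58 (limma adjusted p = 0.0952), and neither passed although 516 genes did. Without wild-type normal-diet array 1 the Moxd1 value was 0.04. The arrays also fell into 2 sets by their median level, which holds all 4 groups in each. The higher set had 1 wild-type high-cholesterol array, and the lower set had 1 wild-type normal-diet array, array 3. Within the higher and the lower set the wild-type diet value was -0.62 and -0.17 for Ces4a, -0.75 and -0.08 for Capn8 and -2.26 and 0.28 for Moxd1. It was -0.12 and 0.57 for Scara5, -0.01 and -0.11 for Zfand4 and -0.34 and 0.01 for E030018B13Rik.

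**Figure D3:**
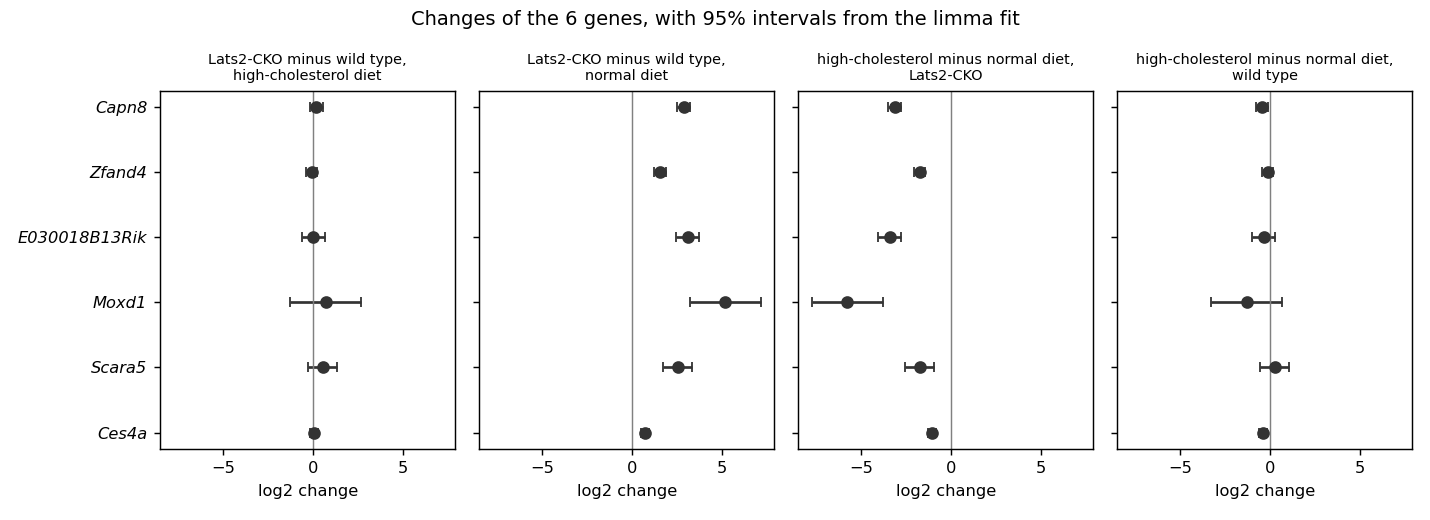
Points give the fitted log2 change of each gene in 4 contrasts, with bars for the 95% interval from the limma fit over 12 arrays. The 2 middle panels were used to choose the genes. The choice did not set the contrasts of the outer panels, though it held their arrays below the Lats2-CKO normal-diet arrays. In the outer panels the points lie between -1.30 and 0.72.

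The levels of the 9 arrays outside the high group also had an order that the choice did not set. Wild-type normal-diet array 1 was the highest of these 9 for 5 of the 6 genes, all but Scara5, where it is so for 17.6% of all genes. Wild-type normal-diet array 3 was the lowest of its group for all 6, as for 41.8% of all genes. These values were looked at after the data were seen. Within the Lats2-CKO normal-diet group no array led throughout: array 1 was the highest for 2 genes, array 2 for 1 and array 3 for 3, and each was the lowest for 2. With group means taken out, the correlation over 12 arrays was above 0 for 11 of the 15 pairs of genes, with a median of 0.35 and a range of -0.21 (Capn8 and Zfand4) to 0.52 (Capn8 and Moxd1). These pairs share arrays and a normalisation, so the correlations are a description.

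The genes lie on 6 different chromosomes. For each gene the nearest measured protein-coding gene on either side was taken by RefSeq order, which gave 12 neighbours. None of the 12 had all Lats2-CKO normal-diet arrays above the rest. As 1.71% of all genes did, a count of 0 among 12 says little about neighbours. Their genotype differences on normal diet ran from -0.74 (Ccn2, beside Moxd1 and a classic YAP target) to 0.58 (Cbfb, beside Ces4a), with limma adjusted p of 0.299 or more. Capn2, a ubiquitous calpain next to Capn8, was at 0.13 ± 0.11 and Ces3b, a liver carboxylesterase next to Ces4a, at 0.23 ± 0.30.

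Relatives of the 6 genes were read in the contrast of genotypes on normal diet. There 0.0135% of all genes passed, all of them among the 6 that the rule had picked. A count of 0 passing in a small family therefore says little about it. The calpain list held 12 other measured genes, among them the small subunit gene Capns1 and Cast, which encodes the calpain inhibitor. Of these 12, 4 were higher and 8 lower in Lats2-CKO than in wild-type livers on normal diet, with a median of -0.04. None passed (the smallest p was that of Capn5, at -0.26 ± 0.18). Of 17 other genes on the carboxylesterase list, which also held the esterase gene Aadac, 5 were higher and 12 lower. The median was -0.11, the smallest p was that of Ces2a at -0.95 ± 0.43, and 0 passed. Members of that family resemble each other closely, so the array may not keep them fully apart. The 10 scavenger receptor genes, which are of several classes, had a median of -0.25 with 2 higher and 8 lower, and none passed. Those of class A, like Scara5, were Msr1 (0.02), Marco (-0.24), Colec12 (-0.27) and Scara3 (-0.12). The 6 AN1-type zinc finger genes had a median of -0.22 with 2 higher and 4 lower, and none passed. Zfand3 met the condition that chose the 6 genes, but with a gap of 0.01. All 3 copper monooxygenases measured were higher (median 0.13, 0 passed), and Dbh met the condition with a gap of 0.05. Dbh, counted above among the 9 adrenal genes, read 4.97 on Lats2-CKO normal-diet array 3 and 2.59 to 2.89 on the other 11 arrays. Of 13 iron-handling genes, 7 were higher and 6 lower (median 0.02), and the iron exporter Slc40a1 was at -1.54 ± 0.41 (limma adjusted p = 0.253). Without Lats2-CKO normal-diet array 3 the calpain list split into 6 higher and 6 lower (median -0.0041), and the carboxylesterase list median was -0.02. Without wild-type normal-diet array 3 the AN1-type median was -0.08 and the iron-handling genes split into 6 higher and 7 lower (median -0.0072). Over all genes, 11092 of 22180 were higher in this contrast and the median was 0.

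Pathways tied to Lats2 and to the diet were read beside them. Of 17 YAP/TAZ target genes, 8 were higher and 9 lower in Lats2-CKO livers on normal diet (median -0.04, 0 passed), and without Lats2-CKO normal-diet array 3 the split was 5 higher and 12 lower (median -0.08). Ccn1, a matricellular YAP target, was at -2.52 ± 0.49 (limma adjusted p = 0.154), the other way from the 6 genes. Of 16 cholesterol synthesis genes, 12 were higher and 4 lower with a median of 0.32 and 0 passed, with Dhcr7 the only one to meet the condition (gap 0.36). Without wild-type normal-diet array 3 the split was 7 higher and 9 lower with a median of -0.04. With the high-cholesterol diet in Lats2-CKO mice, 15 of the 16 were lower (median -1.19), and Cyp51, a lanosterol demethylase, and Dhcr7, the last enzyme of the pathway, fell by 3.15 ± 0.44 and 1.50 ± 0.25 (SE, limma adjusted p = 0.0277 and 0.04). In wild-type mice all 16 were lower with that diet (median -0.86, 0 passed). The sterol list mean was 7.16, 7.58 and 7.32 in Lats2-CKO livers on normal diet, against 7.64, 6.84 and 5.97 in wild-type livers on normal diet. These groups overlap.

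Markers of some other cell types also differed in this group, and their part in the levels of the 6 genes was not tested. Of 8 adipocyte markers, 8 were higher in Lats2-CKO than in wild-type livers on normal diet (median 0.46, 0 passed), with list means of 4.28 to 5.34 against 3.89 to 4.20. The highest was Lats2-CKO normal-diet array 3, and without it 8 of 8 were higher with a median of 0.19; without wild-type normal-diet array 3 it was 7 of 8, with a median of 0.45. Of the genes that define fat cells, Adipoq read 2.69 to 3.38 on all 12 arrays, Lep 2.65 to 3.14 and Plin1 2.73 to 3.69, near the bottom of the range. Retn, the resistin gene, read 3.15, 3.17 and 4.92 in Lats2-CKO livers on normal diet, against 3.002 to 3.24 on the other 9 arrays. Fabp4, a fatty acid carrier, read 7.09, 8.05 and 9.97 in the Lats2-CKO normal-diet group, against 5.40, 7.15 and 6.75 in wild-type livers on that diet. Of 17 lipid droplet and PPAR gamma target genes, 7 were higher and 10 lower (median -0.39), and Cidec and Cidea, which stand in both lists, met the condition that chose the 6 genes. Fibroblast and mesothelial markers, from cells known to express Scara5, were higher for 4 and lower for 9 of 13 genes (median -0.10, 0 passed), but 7 were higher and 6 lower without wild-type normal-diet array 3 (median 0.01). They had list means of 4.17 to 4.47 in Lats2-CKO and 4.22 to 4.54 in wild-type livers on normal diet. The 10 gastric markers, relevant to Capn8, averaged 2.89 to 3.003 on all 12 arrays, at the level of the dimmest genes. All 14 macrophage and Kupffer cell markers were lower in Lats2-CKO livers on normal diet (median -0.54, 0 passed), with list means of 6.07 to 6.31 against 6.70 to 6.99. In whole liver, fewer cells of a type and less RNA per cell cannot be told apart.

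**Figure D4:**
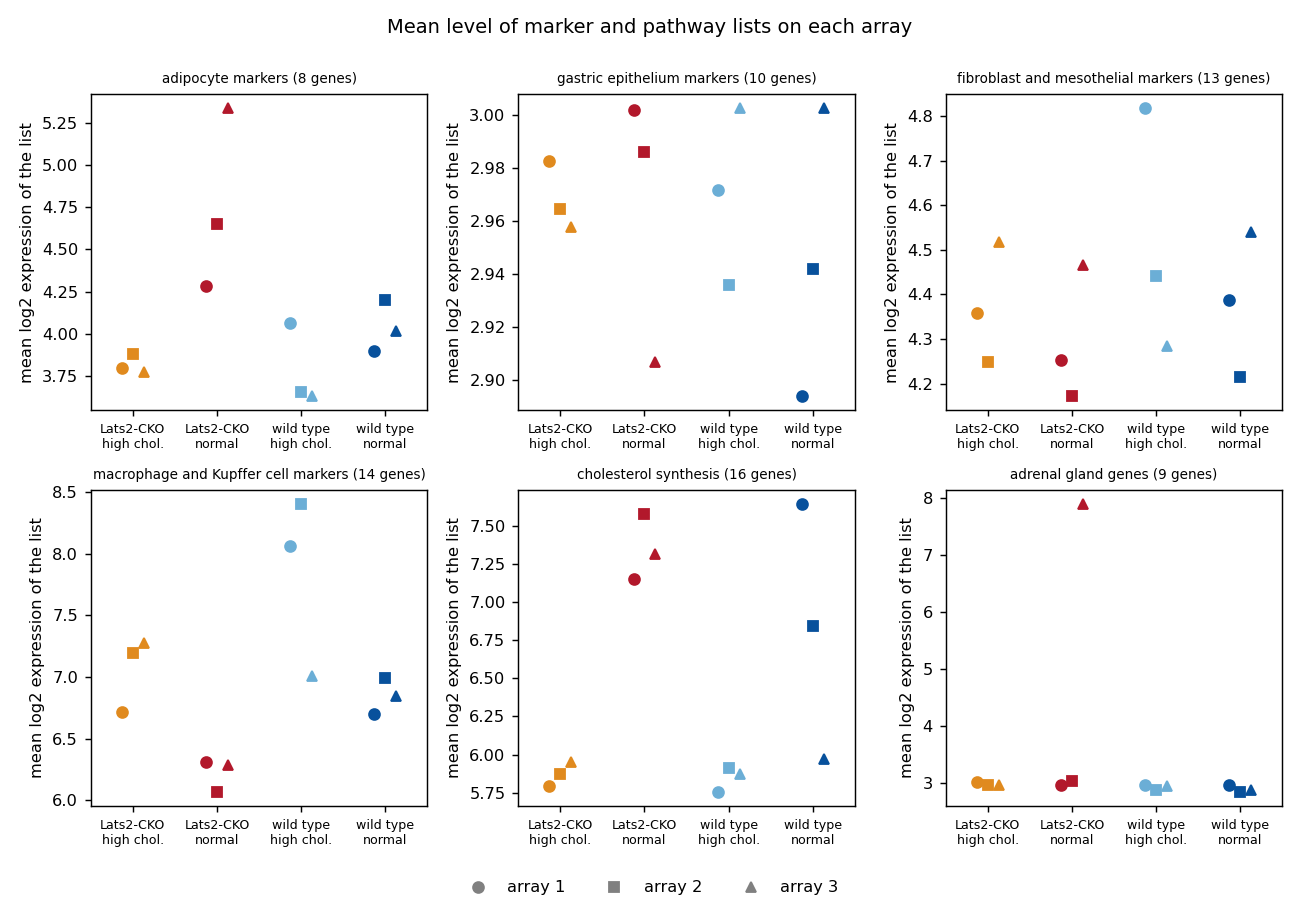
Each point is the mean log2 expression of a gene list on 1 array, with groups on the horizontal axis and 1 symbol per array number. Adipocyte markers are highest and macrophage markers lowest in the Lats2-CKO normal-diet group, and adrenal genes stand out on Lats2-CKO normal-diet array 3 alone, at 7.90.

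The genes most like the 6 were found by correlating each of 1365 genes with an SD of at least 0.5 with the mean of the 6 standardised profiles over 12 arrays. The 6 themselves correlated with that mean at 0.90 (Scara5) to 0.99 (Capn8). The 8 likest were Gimd1, a small GTPase-like gene (r = 0.92), the major urinary protein pseudogene Mup-ps12 (0.90), Gpatch4 (0.90), F11 (0.90), the ribonuclease gene Rnase2a (0.89), Ttc41 (0.89), Serpina12 (0.88) and the organic anion transporter Slc22a7 (0.88). Their genotype differences on normal diet ran from 0.82 to 1.66, and F11, made by hepatocytes, averaged 9.04 ± 0.03 in Lats2-CKO and 7.94 ± 0.56 in wild-type livers on normal diet (SD, n = 3 each). The 4 with the most opposite profile were Ddah1, which degrades asymmetric dimethylarginine (r = -0.95), Klb, the co-receptor of FGF21 and FGF15 (-0.94), the water channel Aqp8 (-0.93) and the protease Casp6 (-0.92). Ddah1 averaged 8.94 ± 0.54 in Lats2-CKO and 10.63 ± 0.48 in wild-type livers on normal diet, and 11.08 ± 0.06 in Lats2-CKO and 10.91 ± 0.09 in wild-type livers on the high-cholesterol diet. Klb read 7.84, 7.79 and 7.87 in Lats2-CKO livers on normal diet, against 8.57 to 9.07 on the other 9. These 12 were chosen by likeness to a profile that the selection had shaped, so no test is given for them.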

How the data were processed

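The authors deposited log2 expression values, and per the submitters' processing notes RMA and Partek 6.6 were used. The log2 scale was read from the range (1.94 to 14.2). RMA settings and genome build are not given in the sources used here. RNA input was 250 ng per the labels' protocols. Probe sets (41345) were named from the platform's annotation, and symbols were brought up to date with RefSeq through gene identifiers. The probe set with the highest mean stood for a gene, which gave 22180 genes. The test was limma 3.58.1 (R 4.3.3), as 1 fit over 12 arrays and 4 group means, with p-values adjusted by Benjamini-Hochberg over all genes at 0.05. The script was tested on simulated data.

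The 6 genes, the gene lists and the tests were chosen with earlier results of these data known. The adrenal and brown fat genes, neighbours, motifs and array orders were chosen after their values were seen. Other genes were named by rule: 8 likest and 4 least like, 5 with the widest gaps (each without predicted and clone-named genes), those at the edge, and the smallest p of a list. The labels call the arrays biological replicates. Same-numbered arrays of different groups correlated at 0.0024 to 0.18 in their deviations from group means, so the numbers were not taken as pairs. Arrays limit precision by their number. Alternatives were a fit on the groups compared, a replicate block, a block for array sets by median, another prior, no dim genes, averaged probe sets, 2 scalings and each array left out.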

Additional observations from a re-analysis of the deposited data

Results flagged for a closer look

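Probe sets with no gene or several genes in the annotation lie outside the gene tests, and 164 of these 17824 probe sets (0.92%) had all 3 Lats2-CKO normal-diet arrays above the other 9. The widest gap among them was 0.88, at probe set 17246963, with 6.29, 7.51 and 7.10 in the Lats2-CKO normal-diet group, against 4.51 to 5.41 elsewhere. None had a gap of 1 or more. Groups held 3 arrays, so single arrays were not tested for outliers.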

How the results depend on the processing

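The replicate block left the counts of calls at 0 for diet in wild type, 0 for genotype on the high-cholesterol diet, 3 for genotype on normal diet, 58 for diet in Lats2-CKO and 1 for the interaction, and changed no call of the 6 genes in the 2 contrasts that were tested for them. The numbers were not taken as pairs. Fitting only the groups compared gave 1 call for genotype on normal diet and 265 for diet in Lats2-CKO, where the 4-group fit gave 3 and 60; for the interaction that fit is the same. The array set block gave 11, 33 and, for the interaction, 2. The trended and robust prior gave 5, 98 and 2. Leaving out dim genes gave 109 for diet in Lats2-CKO and 3 for the interaction.

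Leaving out 1 array at a time gave 0 to 516 calls for diet in wild type (516 without wild-type normal-diet array 3, 67 without array 3 and 1 without array 1 of the wild-type high-cholesterol group), 0 to 22 for genotype on the high-cholesterol diet (22 without wild-type high-cholesterol array 3), 3 to 17 for genotype on normal diet (17 without array 1 and 7 without array 2 of the Lats2-CKO normal-diet group, 8 without wild-type high-cholesterol array 1), 5 to 468 for diet in Lats2-CKO (468 without wild-type normal-diet array 3, 5 without Lats2-CKO high-cholesterol array 1 or 3) and 1 to 2 for the interaction. The genes meeting the condition numbered 412 to 1086, since fewer arrays had to satisfy it.

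None of the 6 genes passed in either tested contrast under any alternative. No gene at all passed in 17 of 20 alternatives for diet in wild type and in 18 of 20 for genotype on the high-cholesterol diet. The absence of calls among the 6 therefore says little about them. Small values changed sign. Zfand4 on the high-cholesterol diet was 0.0088 under quantile normalisation and ran from -0.1429 to 0.0339 with arrays left out, E030018B13Rik from -0.0674 to 0.1522 and Ces4a from -0.0269 to 0.1175. With the diet in wild type, Moxd1 ran from -2.0311 to 0.0405 and Scara5 from -0.0414 to 0.4105. The causes were not tested. The 3 arrays a group, and levels near the bottom of the range outside the Lats2-CKO normal-diet group, limit these values.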

Other observations

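Arrays differed in how many genes they alone read at least 1 above all other 11 arrays. The count was 3, 26 and 36 for the Lats2-CKO normal-diet arrays, and 0, 3 and 3 for the wild-type normal-diet arrays. It was 2, 37 and 0 for the Lats2-CKO and 30, 130 and 1 for the wild-type high-cholesterol arrays. None of the 6 genes was among them on any array. For arrays outside the Lats2-CKO normal-diet group the choice of genes made this certain, so only arrays of that group could have shown otherwise. Beside the steroid enzymes, the genes raised on Lats2-CKO normal-diet array 3 included Chga (6.57, against 2.81 to 3.18 on the other 11), a granule protein of chromaffin cells, and Cox8b (5.58, against 2.75 to 3.04), a respiratory subunit of brown fat and muscle.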
